A study of Mus musculus with 17 samples.

Results

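The untreated endpoint of a Paneth cell differentiation was compared with the 3 libraries that precede it. Murine small intestinal organoids were moved from ENR+CV, a medium that holds them rich in stem cells, to ENR+CD, and single cells were profiled by Seq-Well S3, in which each captured transcript carries a unique molecular identifier (UMI). The comparison took the ENR+CD libraries of day 2, day 3 and day 4 (replicate 2 of each) against both ENR+CD libraries of day 6 (replicates 1 and 2), and no library had received KPT-330, the XPO1 inhibitor of the study's other arm. These 5 of 17 libraries held 7103 of the 19877 cells kept by the authors, 4451 from days 2 to 4 and 2652 from day 6. The organoids were grown from crypts of male and female wild-type C57BL/6 mice aged from 1 to 6 months, and each library pooled cells from more than 1000 organoids. The labels do not say whether replicate numbers mark separate mice, cultures or runs, so every p-value measures only the spread between these libraries. Day 2, day 3 and day 4 served as the replicates of the earlier period, so that their spread holds time as well as library.

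Paneth cells are granule-filled secretory cells at the base of the intestinal crypt that release antimicrobial peptides and feed the neighbouring stem cells with Wnt, EGF and Notch ligands. In ENR+CD the GSK3 inhibitor CHIR99021 keeps Wnt signalling on while the gamma-secretase inhibitor DAPT blocks Notch, a combination that steers stem cells to secretory fates, Paneth cells foremost and enteroendocrine (hormone-producing) cells besides. A separate state, best known from injured epithelium and fetal organoids, is marked by Clu, Ly6a and Anxa1 and is tied to the transcriptional coactivator YAP.

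Depth differed most between the day 6 libraries themselves. Total UMIs ran from 4436094 in day 6 replicate 2 to 12433109 in day 6 replicate 1, and the median cell held 2701 and 8463 UMIs in these 2 libraries against 6043, 4551 and 3911 at days 2, 3 and 4. Any pair of the 5 libraries shared at most 1 cell barcode. The median mitochondrial share of UMIs was between 7.37% and 13.5%. Cells were epithelial by their markers: of 23 genes of immune, stromal, endothelial and glial cells only 4 were high enough to test, and the list took 0.00181% to 0.00408% of UMIs in a library. Defining markers of tuft cells, a rare chemosensory lineage, reached 0.000998% of UMIs at most.

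The organoids held more Paneth-like and fewer goblet-like cells at day 6, while the lower share of stem-like cells depended on which clusters were counted. Cells were clustered anew and a cluster was named only where its leading genes were markers of a class, which gave 6 named classes and 2 unnamed clusters. Paneth-like cells made up 3.92% of cells at day 2, 15.4% at day 3 and 32.0% at day 4, and 46.8% and 39.3% in the day 6 libraries. The day 6 values thus lay above all earlier ones, with a smaller step after day 4 (Wilson 95% interval 29.7% to 34.4%) than before it. The cluster named stem-like held 14.3%, 24.0% and 23.5% of cells on days 2 to 4 and 4.10% and 12.3% at day 6. Goblet-like cells were at 18.6%, 17.4% and 10.9% and then at 5.45% and 6.79%. All 3 classes separated the periods without overlap, with means of 17.1% ± 14.1 (SD, n = 3) against 43.0% ± 5.32 (n = 2) for Paneth-like cells. The two-sided exact permutation test gave p = 0.2 for each, the smallest value that 3 libraries against 2 allow, so no share could pass a threshold of 0.05. Goblet mucus genes were not lower over all cells, at 0.895%, 0.926% and 0.882% of UMIs on days 2 to 4 and 1.02% and 1.04% at day 6. Muc2 and Spink4, both goblet markers, were among the leading genes of a Paneth-like cluster. The share of goblet-like cells thus does not give the level of goblet genes. For stem-like cells the separation was lost under other class calls. Taking each cell's highest marker score gave 20.7%, 27.1% and 29.99% and then 14.2% and 22.7%. Joining the unnamed cluster led by Clu and Notum, whose best marker score was also that of stem cells and whose Lgr5 level was the higher of the 2 (7.84 against 6.39 UMIs per 10000 on days 2 to 4 and 4.69 against 3.49 at day 6), gave 14.9%, 25.8% and 31.4% and then 14.3% and 26.3% (exact permutation p = 0.6).

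Cycling cells did not separate the periods, and enteroendocrine-like cells did so only where a finer clustering left part of them without a name. Enteroendocrine-like cells held 15.9%, 23.3% and 16.1% of cells on days 2 to 4 and 20.05% and 19.3% at day 6 (exact permutation p = 0.8). With the finer clustering (resolution 0.8) 426 cells, led by Miat and Nefm, had no name. They were most frequent early (12.03%, 9.09% and 3.81%, then 1.82% and 2.74%). Their best marker score was the enteroendocrine one (0.652), with 26 such markers in at least 5% of cells but none among the top 10 genes. The remaining enteroendocrine-like cells held 4.13%, 14.7% and 12.4% on days 2 to 4 and 18.3% and 17.0% at day 6. These did not overlap, and the difference in means went from 1.20 to 7.28 percentage points (exact permutation p = 0.2). With the 426 cells joined back the periods would overlap again, day 3 being highest. Cycling cells were at 8.53%, 4.07% and 4.33% and then at 5.92% and 5.78% (exact permutation p = 1). Enterocyte-like cells, highest at 28.0% on day 2, overlapped as well, since day 4 (3.81%) lay between the day 6 libraries (6.95% and 2.02%).

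2 clusters had no name from the markers. One, led by Clu and Notum, held 0.629%, 1.83% and 7.89% of cells on days 2 to 4 and 10.2% and 14.0% at day 6. The other, led by Gif and Cdc25b, held 10.1%, 3.66% and 1.49%, and then 0.552% and 0.578%. Lgr5 and Gfi1 were among the top 10 genes of this cluster. Its best marker score was that of tuft cells (1.94), although no tuft marker reached 5% of its cells. Its second best was that of stem cells (0.743). On days 2 to 4 Fcgbp, a goblet marker, was at 52.0 UMIs per 10000 in it, against 2.46 in stem-like cells. Defa24, an alpha-defensin gene, was at 120 against 10.5. The cluster was not joined to the stem-like cells. Both unnamed clusters separated the periods (exact permutation p = 0.2 for each). Clu was itself higher at day 6 in other classes, described later, so the size of the cluster it leads cannot be told apart from the level of the gene.

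**Figure D1:**
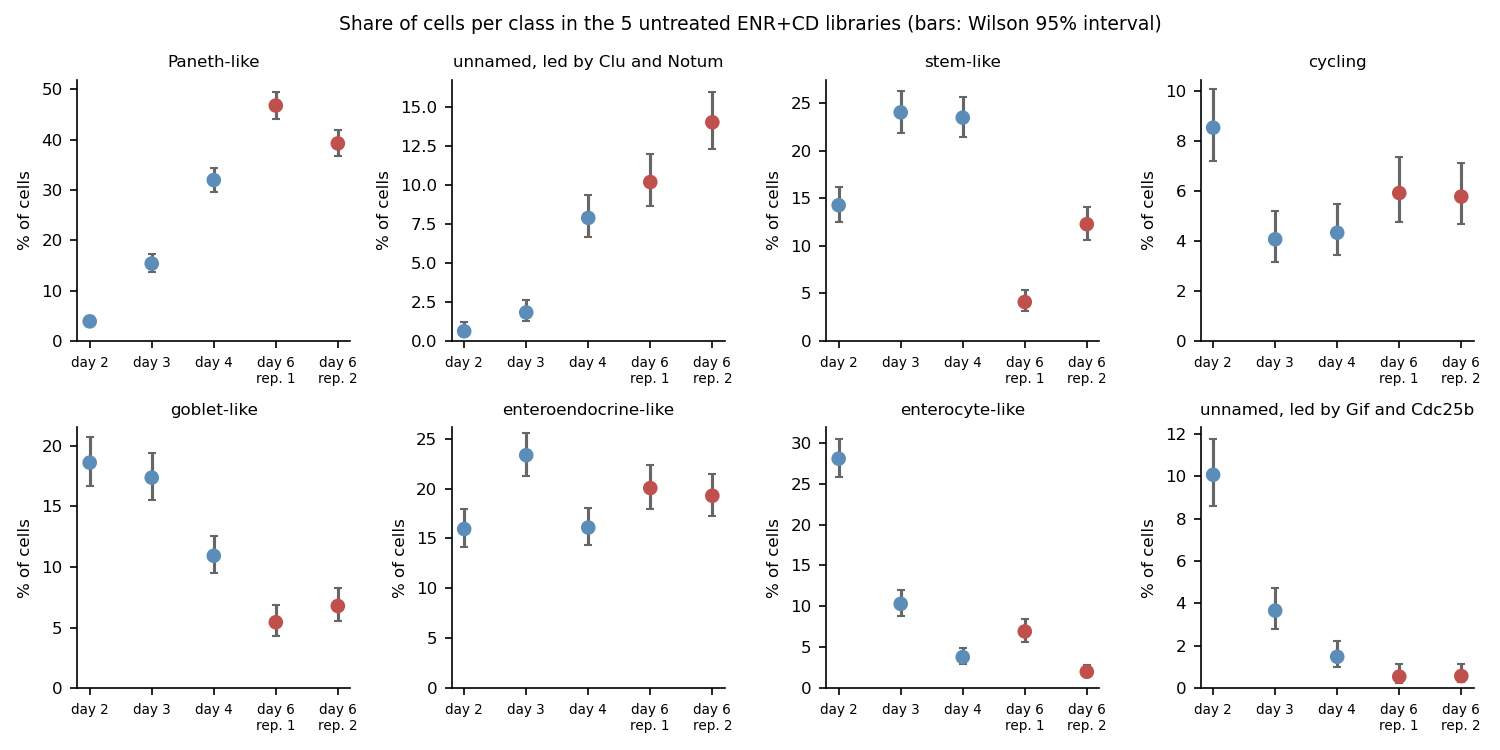
Share of cells (%) in each class, 1 point per library, with bars for the Wilson 95% interval, which covers counting error only; blue, days 2 to 4; red, day 6. Paneth-like cells reach 46.8% and 39.3% at day 6, stem-like cells are at 4.10% and 12.3%, whereas enteroendocrine-like and cycling cells overlap between the periods at this clustering.

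UMIs were then summed over all cells of a library, and 12643 genes were tested with edgeR's quasi-likelihood test. No gene passed a Benjamini-Hochberg adjusted p of 0.05 in either direction with edgeR, while 658 genes were higher and 477 lower at day 6 at an unadjusted p under 0.05, and DESeq2 called 62 higher and 21 lower. Both day 6 libraries lay above every earlier library for 14.6% of all genes and below for 12.9%, and these shares are the background for each count of non-overlapping genes given here. The median log2 change of all genes was -0.01. In a second fit all 17 libraries of the series entered and each condition and day had its own mean. Differences among days 2, 3 and 4 thus no longer counted as error. The spread of this fit came only from groups with replicates: ENR+CV day 0, ENR+CD+KPT-330 day 3, ENR+CD day 6 and ENR+CD+KPT-330 day 6. Groups with a single library, days 2, 3 and 4 of ENR+CD among them, added nothing to the spread. That fit called 107 genes higher (0.795% of 13455) and 15 lower (0.111%). It leaned on having both day 6 libraries: without replicate 1 it called 15 higher and 0 lower, and without replicate 2 it called 42 higher and 2 lower. Of the genes named here Clu, Ang4, Nts, Hdc, Nupr1 and Chac1 passed without either of the 2, and the others lost their call without at least 1 of them. Of the 121 called genes tested in the 5 libraries as well, 104 lay above and 14 below every earlier library. It was listed as an alternative, and the values called "adjusted p over 17 libraries" refer to it. Against day 4 alone the same 17 libraries gave 0 calls with edgeR, with 264 genes higher and 171 lower at an unadjusted p under 0.05 and 1 call, higher, by DESeq2. In sums over all cells, more cells of a type and more RNA per cell cannot be told apart.

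Paneth cell antimicrobials took a larger part of the RNA at day 6. The alpha-defensins, peptides stored in Paneth granules, took 1.41%, 2.92% and 6.14% of all UMIs on days 2 to 4 and 8.56% and 7.87% at day 6. Both day 6 libraries exceeded all earlier ones for 12 of 15 tested members, with none below, and the median log2 change was 1.22. Against day 4 alone the median was 0.44. 9 members passed with 17 libraries. Members of this family are near-identical copies, and how reads that fit several of them were assigned is not known for these files, so the family sum is firmer than any 1 member.

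Defa24 (chromosome 8, 21734494 to 21735471, plus strand, GRCm38) was at 9878, 18493 and 33803 CPM (counts scaled to 1000000 per library) on days 2 to 4 and at 49006 and 46320.0 CPM at day 6. Each later day was higher and the day 6 libraries lay close together, but the difference did not pass (edgeR log2 change 1.37 ± 0.36 SE, adjusted p = 0.12 over 17 libraries). Gm14851, another alpha-defensin gene, was at 68.8, 196 and 631 CPM and then at 1809 and 1117 CPM. It rose by 2.84 ± 0.38 (SE) on the log2 scale with edgeR (adjusted p = 0.0059 over 17 libraries, 0.46 with the 5 alone).

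The list of other Paneth antimicrobials and lectins went the same way, at 1.53%, 3.43% and 6.05% of UMIs and then 7.17% and 7.53%. Not all its members are granule products of Paneth cells alone. It holds the nuclear protein Nupr1, and Spink4 and Dmbt1, which served here as goblet and enterocyte markers. Of 25 tested, 17 lay above and 3 below all earlier libraries (median log2 change 1.11), and 8 passed with 17 libraries. Ang4, an angiogenin ribonuclease with antimicrobial activity, was at 269.8, 1081 and 2805 CPM and then at 5025 and 5993 CPM. Each later day was higher, and Ang4 rose by 2.55 ± 0.22 (SE) on the log2 scale with edgeR (adjusted p = 0.0014 over 17 libraries, 0.53 with the 5). Itln1, an intelectin that binds microbial sugars, stood at 6341, 17786 and 31202 CPM, then at 43659 and 43342 CPM (edgeR log2 change 1.51 ± 0.30, adjusted p = 0.042 over 17 libraries).

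Lysozyme parted from this pattern. Lyz1 was at 4089.8, 7527 and 12778 CPM on days 2 to 4 and at 12970.0 and 13467 CPM at day 6. The day 6 libraries were barely above day 4 (log2 difference 0.04), and the contrast with days 2 to 4 did not pass (edgeR log2 change 0.84 ± 0.27, adjusted p = 0.22 over 17 libraries). Pglyrp1, a peptidoglycan recognition protein, instead made its largest step after day 4, from 65.3, 74.4 and 96.3 CPM to 151 and 153 CPM, and rose (edgeR log2 change 0.96 ± 0.14, adjusted p = 0.010 over 17 libraries). Reg3b, a C-type lectin, was uneven, at 96.3, 96.1 and 85.6 CPM and then 513 and 134 CPM, with the high value in day 6 replicate 1 alone.

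Each cell's share of UMIs in the 2 Paneth lists was also measured after thinning every cell to 1000 UMIs, without clusters. The cell at the 90th percentile gave 11.1%, 21.6% and 32.7% of its UMIs to these genes on days 2 to 4 and 37.4% and 37.9% at day 6 (exact permutation p = 0.2). The median cell gave 0.4%, 0.55% and 1.6% and then 12.3% and 3.4%. The richest cells thus differed little between the day 6 libraries while the median cell differed widely, in a range of Paneth-like shares of 39.3% to 46.8%.

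**Figure D2:**
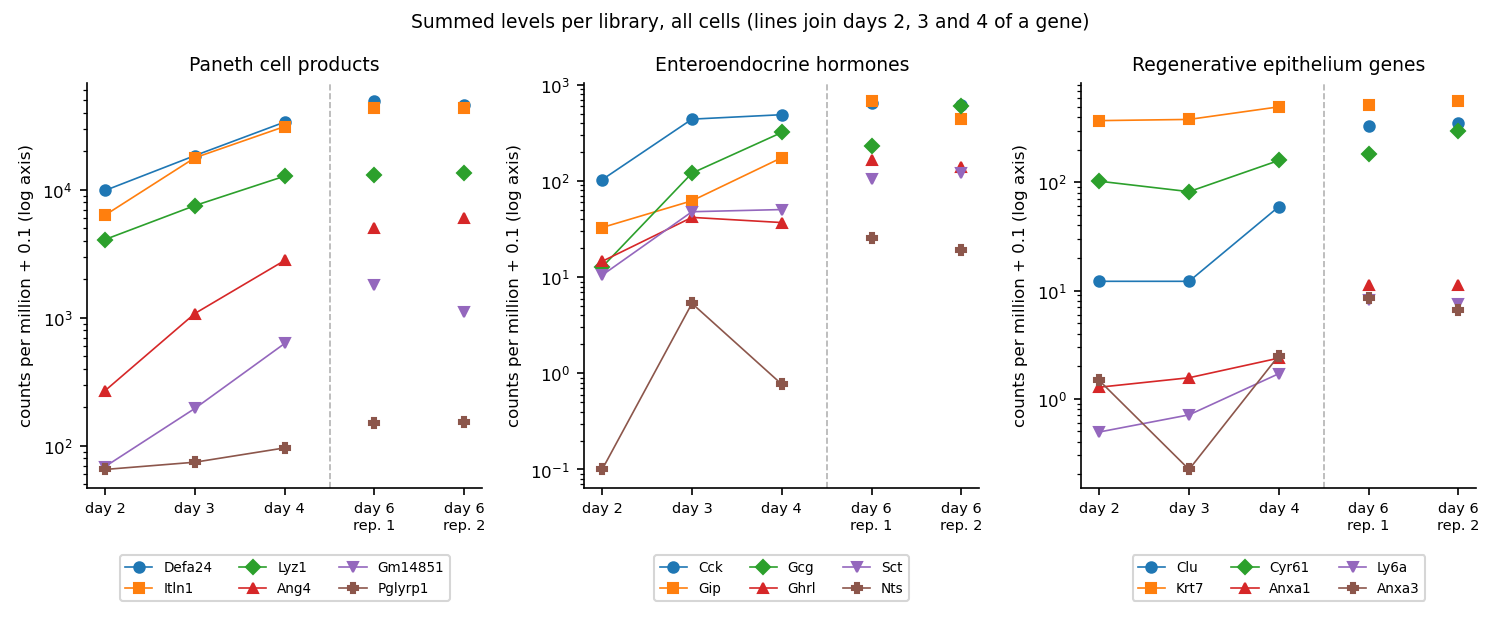
CPM (log axis, 0.1 added) in each library for genes of Paneth products, enteroendocrine hormones and the regenerative epithelium list; lines join days 2, 3 and 4 of a gene. Defa24 and Itln1 flatten after day 4 and Lyz1 stays near its day 4 level, while Ghrl, Clu, Anxa1 and Ly6a make their largest step between day 4 and day 6.

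Enteroendocrine hormones were higher at day 6, and the share of enteroendocrine-like cells overlapped between the periods or lay above all earlier libraries, depending on the clustering. Hormone genes took 0.0206%, 0.0839% and 0.132% of UMIs and then 0.189% and 0.207%. Both day 6 libraries exceeded the earlier ones for 9 of 12 tested hormones or hormone-synthesis genes, with none below, and the median log2 change was 1.37 (0.70 against day 4). 5 of them, Gip, Gcg, Ghrl, Sct and Nts, passed with 17 libraries.

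Gip (chromosome 11, 96024545 to 96030831, plus strand, GRCm38), the incretin of K cells, was at 32.8, 62.3 and 175 CPM and then at 674 and 446 CPM. Both day 6 values were far above day 4, and Gip rose by 2.97 ± 0.52 (SE) on the log2 scale with edgeR (adjusted p = 0.029 over 17 libraries, 0.34 with the 5). Ghrl, the precursor of ghrelin, was flat between day 3 (41.8 CPM) and day 4 (36.9 CPM) after 14.5 CPM on day 2, and stood at 165 and 139 CPM at day 6 (edgeR log2 change 2.42 ± 0.34, adjusted p = 0.0074 over 17 libraries). Gcg, which encodes proglucagon and thereby GLP-1, was at 12.7, 121 and 320.35 CPM and then at 231 and 598 CPM. Day 4 lies between the day 6 libraries, and Gcg passed against the mean of days 2 to 4 (edgeR log2 change 2.38 ± 0.35, adjusted p = 0.012 over 17 libraries).

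Granule and vesicle proteins went with the hormones. Of 28 tested, 17 lay above and 1 below all earlier libraries (median log2 change 0.58), and 6 passed with 17 libraries. Chga, the chromogranin that packs hormone granules, was at 206, 654 and 687 CPM and then at 1282 and 1608 CPM, without overlap (edgeR adjusted p = 0.061 over 17 libraries). Hdc, the histamine-forming enzyme and a gene outside the lists that was named after its values were seen, was at 2.65, 28.1 and 32.9 CPM and then at 107 and 79.3 CPM, and rose (edgeR log2 change 2.79 ± 0.30, adjusted p = 0.0017 over 17 libraries).

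Transcription factors of these lineages did not follow their products. Of 23 tested enteroendocrine factors 4 lay above and 3 below all earlier libraries (median log2 change -0.06, of either sign by setting), and of 20 secretory factors 1 lay above and 7 below (median -0.14); edgeR over 17 libraries called none of either list. Neurog3, the factor that starts the enteroendocrine programme, overlapped at 199, 302 and 257 CPM against 222 and 254 CPM. Atoh1, the switch to secretory fate, was at 31.0, 45.9 and 36.6 CPM and at 28.4 and 27.1 CPM at day 6. It was lower in both day 6 libraries without passing (edgeR adjusted p = 0.30 over 17 libraries).

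Several genes of the regenerative list were scarce on all 3 earlier days and higher at day 6. Of 22 tested members, 12 lay above and 2 below every earlier library, and 6 passed with 17 libraries, all higher, among them Clu, Anxa1, Anxa3, Ly6a and Il1rn. The list's median log2 change was 0.62 against days 2 to 4 and 0.60 against day 4 alone, so that the median was about as large over the last step alone.

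Clu (chromosome 14, 65968483 to 65981547, plus strand, GRCm38), a secreted chaperone, was at 12.1, 12.1 and 59.5 CPM and then at 333 and 357 CPM. The day 6 libraries agreed closely, and Clu rose by 4.06 ± 0.46 (SE) on the log2 scale with edgeR (adjusted p = 0.0022 over 17 libraries, 0.28 with the 5). Anxa1, an annexin that limits inflammation, was at 1.18, 1.46 and 2.27 CPM and then at 11 and 11.3 CPM (edgeR log2 change 2.80 ± 0.40, adjusted p = 0.0082 over 17 libraries). Ly6a, which encodes the surface protein Sca-1, was at 0.392, 0.609 and 1.61 CPM and then at 8.10 and 7.36 CPM. Ly6a rose by 3.37 ± 0.63 (SE) on the log2 scale with edgeR (adjusted p = 0.031 over 17 libraries), on 4, 5 and 12 UMIs before and 94 and 32 at day 6.

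Other members overlapped or did not pass. Krt19, a keratin, overlapped at 659.6, 297 and 282 CPM against 509 and 417 CPM. Cyr61, a direct YAP target, was at 102, 81.9 and 159 CPM and then at 183 and 299 CPM, above all earlier libraries without passing (edgeR adjusted p = 0.058 over 17 libraries). S100a6, a calcium-binding protein outside the list that was named after its values were seen, was at 5.98, 5.97 and 10.6 CPM and then at 62.9 and 40.9 CPM. Its edgeR log2 change was 2.81 ± 0.30 with an adjusted p of 0.17 in the 5-library test, 0.018 over 17 libraries and 6.6e-12 by DESeq2.

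Clu UMIs were more frequent at day 6 inside and outside the cluster that Clu leads. At day 6 that cluster carried 60.6% of all Clu UMIs, at 19.4 UMIs per 10000 against 4.29 at days 2 to 4. Outside it, Clu went from 0.214 to 1.51 per 10000 in Paneth-like, 0.218 to 2.34 in cycling, 0.0974 to 1.64 in enteroendocrine-like and 0.190 to 1.44 in goblet-like cells. Day 6 levels were lowest in stem-like cells (0.203 to 0.658), the cluster led by Gif and Cdc25b (0.161 to 0.566, on 5 UMIs at day 6) and enterocyte-like cells (0.0913 to 0.313). Notum, which leads the same cluster, went from 0.0997 to 0.141 in Paneth-like cells. The UMIs of Clu and Notum at day 6 were 3286 and 710 in their cluster, 1153 and 108 in Paneth-like and 58 and 57 in stem-like cells, so the genes did not keep 1 ratio across classes. How much of the Clu outside the cluster, here and in the class sums tested later, was free RNA was not measured. For S100a6 the Paneth-like cells held most UMIs at day 6 (59.9%), at 0.710 per 10000 against 0.163 before. Ly6a UMIs at day 6 numbered 51 in Paneth-like cells, the class with most UMIs in all, 34 in the cluster led by Clu and Notum and 25 in cycling cells, with 0 in stem-like and enterocyte-like cells, and the part of free RNA was not tested for these few UMIs. These are sums over libraries and carry no test.

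**Figure D3:**
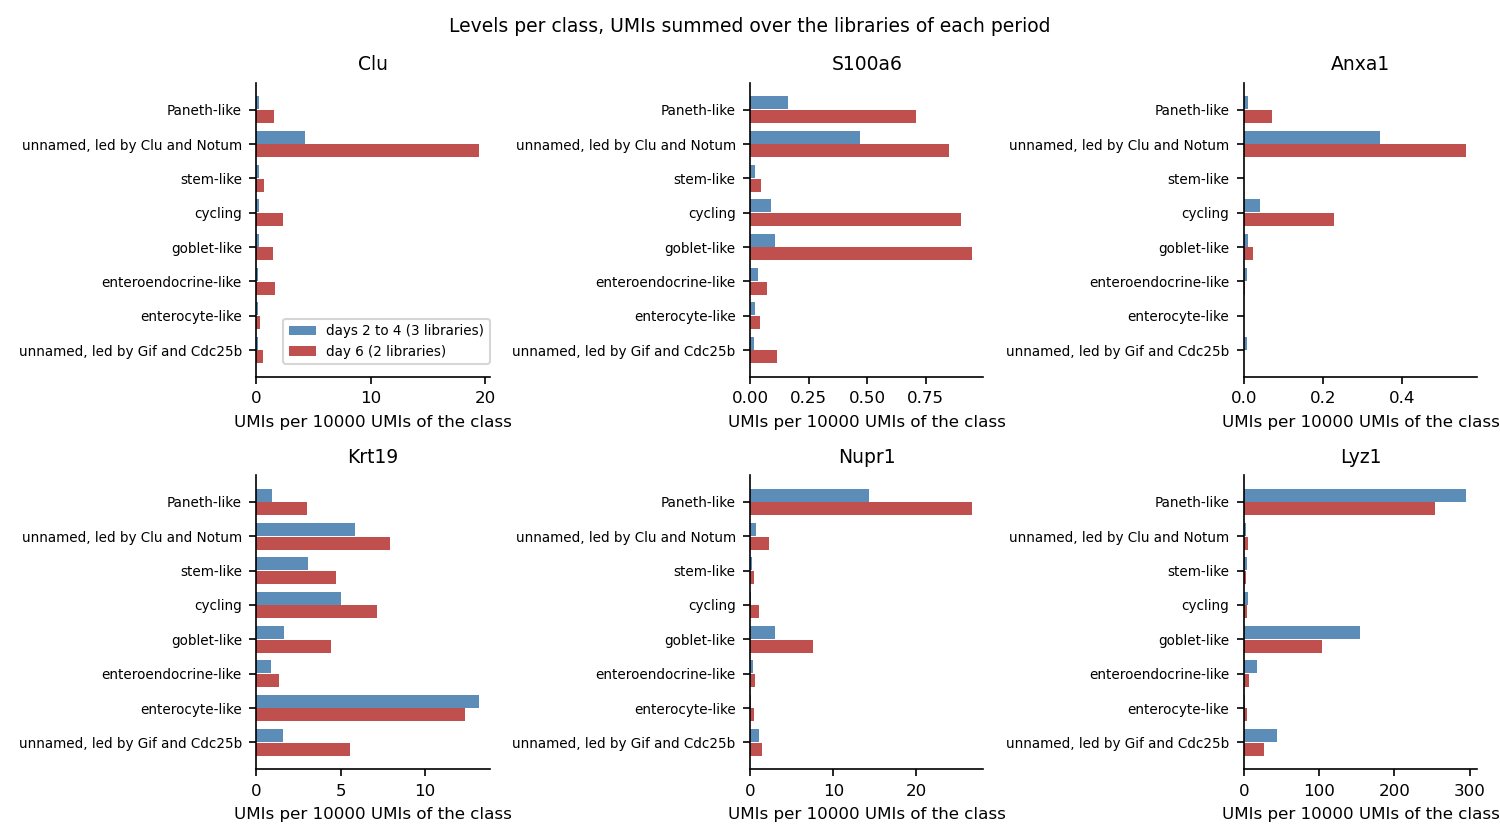
UMIs per 10000 UMIs of a class, summed over the 3 libraries of days 2 to 4 (blue) and the 2 of day 6 (red), for 6 genes; no error is drawn because libraries were pooled. Clu is higher at day 6 in every class drawn, most of all in the cluster it leads (19.4 against 4.29); pooled Lyz1 in Paneth-like cells is at 255 against 295, although its CPM per library overlap.

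Wnt ligands and antagonists included single genes that rose. The Wnt target list as a whole had a median log2 change of 0.00, of either sign by setting, with 4 members above and 3 below all earlier libraries of 22 tested. 3 members of the list that encode secreted proteins nonetheless passed with 17 libraries, namely Notum, Wif1 and Dkk3. Notum, an enzyme that strips the lipid from Wnt proteins, was at 3.33, 8.41 and 29.4 CPM and then at 53.1 and 98.6 CPM (edgeR log2 change 2.99 ± 0.44, adjusted p = 0.0090 over 17 libraries). Wnt6, one of the Wnt ligands made by Paneth cells in the crypt, was at 4.71, 5.12 and 10.8 CPM and then at 23.8 and 29.7 CPM, and rose (edgeR log2 change 2.05 ± 0.27, adjusted p = 0.0059 over 17 libraries). Of the Wnt6 UMIs at day 6, 55.8% lay in the cluster led by Clu and Notum and 11.6% in Paneth-like cells. Wnt6 is among that cluster's own leading genes, so its place there is how the cluster was made.

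Stem cell genes were lower on balance. Of 28 tested, 14 lay below and 3 above all earlier libraries (median log2 change -0.31, and -0.45 against day 4). Lgr5, the R-spondin receptor of crypt stem cells, was at 234, 244 and 267 CPM and then at 149.9 and 164 CPM. The periods did not overlap, but only DESeq2 called it (adjusted p = 0.0046), against an adjusted p of 0.28 with edgeR over 17 libraries. Slc12a2, an ion cotransporter used as a stem marker, overlapped at 655, 843 and 947 CPM against 836 and 852 CPM. With 17 libraries 1 member fell, Vdr, the vitamin D receptor (235, 153 and 104 CPM, then 71.7 and 72.0 CPM), and 1 rose, Cfi, complement factor I (124, 158 and 203 CPM, then 313 and 293 CPM). Of 20 Notch pathway genes none lay above and 5 below, and Dll1, a ligand on secretory precursors, was at 70.1, 63.2 and 36.9 CPM and then at 27.1 and 29.0 CPM (edgeR adjusted p = 0.061 over 17 libraries).

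Cell cycle genes were near the background over all cells and higher within the stem-like and cycling cells. In all cells DNA replication genes had a median log2 change of -0.02, of either sign by setting (40 tested, 5 above, 2 below) and mitosis genes one of 0.15 (47 tested, 4 above, 1 below). In sums over stem-like and cycling cells alone, 29 of 46 mitosis genes and 23 of 40 replication genes lay above all earlier libraries and none below, with medians of 0.88 and 0.58, where 14.5% of all genes lay above and 13.8% below. The make-up of this class moved with them: cycling cells were 37.4%, 14.5% and 15.6% of it on days 2 to 4 and 59.1% and 32.0% at day 6, and what this share contributed was not tested. Of 10330 genes in these sums 2 passed, both higher (0.0194%), with 645 higher and 485 lower at an unadjusted p under 0.05. They were Top2a, the topoisomerase of dividing cells, at 267, 185 and 185 CPM and then 737 and 468 CPM (edgeR log2 change 1.51 ± 0.21, adjusted p = 0.036), and Clu, at 20.6, 12.4 and 30.6 CPM and then 185 and 115 CPM (2.85 ± 0.28, adjusted p = 0.0017). Top2a no longer passed without day 3, day 4 or day 6 replicate 1 (edgeR adjusted p = 0.58, 0.061 and 0.47), nor Clu without day 6 replicate 1 (0.067). Without day 2 the test called 145 higher and 21 lower, without day 3 it called 1, without day 4 it called 8 and 1, without day 6 replicate 1 it called 0 and without day 6 replicate 2 it called 15 and 1.

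Within Paneth-like cells the differences did pass. In sums over this class 134 of 9460 genes rose (1.42%) and 57 fell (0.603%), edgeR adjusted p under 0.05 with the 5 libraries alone, and DESeq2 called 48 and 16. Non-overlapping genes were 14% above and 13% below. Without day 3 the calls fell to 31 and 7, without day 4 to 87 and 29 and without day 6 replicate 1 to 49 and 5, and without day 6 replicate 2 they were 209 and 142. The day 2 sum rests on 56 cells. Both Paneth-like clusters were present in all libraries, one of them with 58.9%, 60.4% and 49.7% of the class on days 2 to 4 and 46.0% and 41.5% at day 6. Ang4 was among the top 10 genes of that cluster, and Gm14851 and Nupr1 among those of the other. What the make-up of the class contributed to the sums of such genes was not tested.

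Of the 2 Paneth lists some members rose in this class and others, Lyz1 among them, did not pass. Of other Paneth antimicrobials and lectins 8 of 19 tested rose, Nupr1 among them, and none fell. Of 15 alpha-defensins 3 rose. Ang4 was at 2866, 4945 and 7641 CPM and then at 10224 and 14653 CPM (edgeR log2 change 1.27 ± 0.29, adjusted p = 0.015). Lyz1 overlapped and took either sign by setting, at 24416, 25652 and 30380.0 CPM against 26328 and 32155 CPM (edgeR adjusted p = 0.90). Defa24 was at 61673, 66929 and 82106 CPM and then at 97392 and 109900.0 CPM, above all earlier libraries without passing (edgeR adjusted p = 0.44). Tff3, a trefoil peptide of mucus, rose with Ang4, from 4170.0, 4727 and 6378 CPM to 10012 and 10604 CPM (edgeR log2 change 1.02 ± 0.23, adjusted p = 0.017). Without day 3 neither passed (adjusted p = 0.20 for Ang4 and 0.22 for Tff3 by edgeR), nor without day 6 replicate 2 (0.074 and 0.063), and Tff3 did not without day 6 replicate 1 (0.12). DESeq2 did not call Ang4 either (adjusted p = 0.44). With cells classed by their highest marker score Tff3 did not pass (edgeR log2 change 1.04, adjusted p = 0.065). Tff3 is a goblet marker and a top 10 gene of a Paneth-like cluster at resolution 0.8. What the border between Paneth-like and goblet-like cells contributed to its sums was not tested.

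The genes with the smallest p in Paneth-like cells were not granule products. Clu was at 7.61, 11.1 and 27.5 CPM and then at 189.8 and 80.8 CPM (edgeR log2 change 2.85 ± 0.30, adjusted p = 1.7e-06). Krt19 was at 93.9, 75.6 and 97.1 CPM and then at 359 and 231 CPM (1.75 ± 0.19, edgeR adjusted p = 1.7e-06), although it overlapped over all cells. S100a6 rose from 20.3, 14.8 and 15.3 CPM to 86.7 and 47.3 CPM (edgeR adjusted p = 8.7e-06). Sprr1a, a cornified envelope protein that also appears in injured gut, rose from 2.54, 2.22 and 6.68 CPM to 35.2 and 23.9 CPM (2.67 ± 0.35, edgeR adjusted p = 3.8e-05). Clca3, otherwise a goblet gene, had 0 UMIs in this class in all 3 earlier libraries and 382 at day 6. It is a leading gene of the goblet-like cluster, which held 98.2% of its UMIs on days 2 to 4 and 53.4% at day 6. Its level in Paneth-like cells thus cannot be told apart from where the border between the 2 classes fell. The rule for named genes gave Phgr1, D17H6S56E-5 and Krt23 as the other 3 that rose, with log2 changes of 1.54, 1.96 and 1.63; DESeq2 did not call D17H6S56E-5 (adjusted p = 0.134) or Krt23 (0.0578). Of the regenerative list 6 of 12 tested rose (Clu, Krt19, Cyr61, Anxa2, Areg and Cd44) and none fell, with 10 of 12 above all earlier libraries and a median log2 change of 0.99.

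Some lysosomal hydrolases and metallothioneins rose in Paneth-like cells as well. Of 46 lysosome and autophagy genes tested 7 rose, among them Hexa, Ctsb, Ctsl, Lamp1, Cd63 and Grn, and none fell, with 21 above and 1 below all earlier libraries. Mt1, a zinc-binding metallothionein, rose from 233, 167 and 209 CPM to 464 and 334 CPM (edgeR adjusted p = 0.0018), whereas Slc30a2, which loads zinc into granules, fell from 205, 164 and 119.5 CPM to 84.1 and 91.0 CPM (edgeR log2 change -0.83 ± 0.19, adjusted p = 0.014). Neither Mt1 nor Slc30a2 passed without day 3 (edgeR adjusted p = 0.0669 and 0.149) or without day 6 replicate 1 (0.0985 and 0.17). Gip UMIs, of which enteroendocrine-like cells held 96.6% at day 6, went from 0, 0.741 and 7.47 CPM to 32.8 and 25.7 CPM in Paneth-like sums (edgeR adjusted p = 0.00014), beside the higher Gip of the whole library. The part of free RNA in this was not tested.

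The genes that fell in Paneth-like cells had varied roles. St3gal1, a sialyltransferase, was at 63.4, 94.8 and 67.6 CPM and then at 19.0 and 31.1 CPM (edgeR log2 change -1.72 ± 0.23, adjusted p = 4.8e-05). Vipr1, a receptor for vasoactive intestinal peptide, fell from 27.9, 12.6 and 15.3 CPM to 2.61 and 4.79 CPM (-2.30 ± 0.42, edgeR adjusted p = 0.0023). Lgr5 fell in this class too, from 190.2, 122 and 116 CPM to 77.0 and 82.6 CPM (-0.75 ± 0.18, edgeR adjusted p = 0.026), a call lost without day 2, day 3 or day 6 replicate 1 (0.0696, 0.10 and 0.27) and with DESeq2 (0.0657). The others that the rule named were Cps1, Cbs, Dmpk, Rgmb, Ogt and Leng8, with log2 changes between -0.88 and -1.70. Vipr1 and these 6 no longer passed without day 6 replicate 1 (edgeR adjusted p between 0.0795 for Cps1 and 0.62 for Leng8), Dmpk and Leng8 without day 3 (0.0634 and 0.0641), and Rgmb, Ogt and Leng8 without day 4 (0.0547, 0.0595 and 0.0744).

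**Figure D4:**
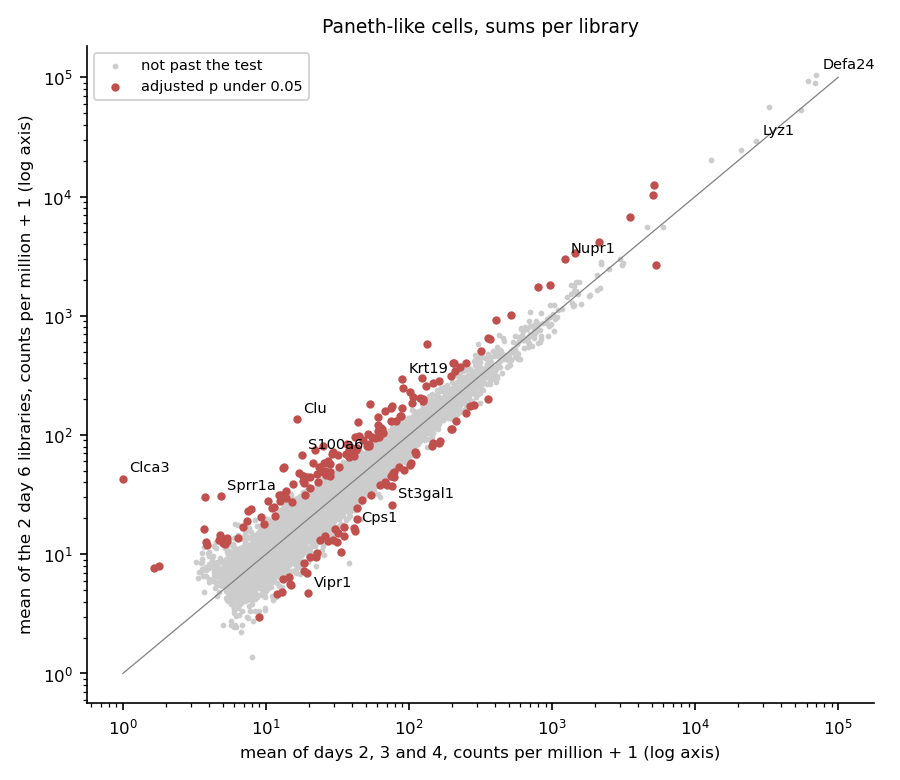
Mean CPM (1 added, log axes) of 9460 genes in sums over Paneth-like cells, days 2 to 4 against day 6; the line marks equal levels, and red points passed edgeR's test at an adjusted p under 0.05 (134 above the line, 57 below). Lyz1 lies on the line at the top, while Clu, Krt19, S100a6 and Sprr1a stand above it.

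Enteroendocrine-like cells changed in 3 genes of 10511 by edgeR, all higher (0.0285%), with 583 higher and 519 lower at an unadjusted p under 0.05 and 28 and 20 calls by DESeq2. Non-overlapping genes were 14.6% above and 14.1% below. Nr4a1, an immediate early nuclear receptor, was at 48.1, 38.9 and 54.1 CPM and then at 152 and 189 CPM (edgeR log2 change 1.85 ± 0.20, adjusted p = 0.029). Defa22, an alpha-defensin, rose from 18.4, 20.1 and 24.2 CPM to 79.7 and 79.5 CPM (1.94 ± 0.21, edgeR adjusted p = 0.029), a Paneth product in a class that should lack it, and the part of free RNA in this was not tested. Afp, alpha-fetoprotein, had 1 UMI in this class on days 2 to 4 and 353 at day 6, at 156 and 30.3 CPM (edgeR adjusted p = 0.042). All 3 lost their call without day 3 or day 6 replicate 1, which left 0 calls, Nr4a1 and Defa22 without day 6 replicate 2 (0.13 each) and Afp without day 4 (0.0828), while leaving out day 2 gave 127 higher and 78 lower and leaving out day 4 gave 7 higher.

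Hormones within this class lay above all earlier libraries for 7 of 12 (median log2 change 1.22) without any passing. Ghrl was at 96.9, 215 and 234 CPM and then at 839 and 834 CPM (edgeR log2 change 2.20 ± 0.32, adjusted p = 0.088), and Chga at 1252, 3339 and 4589 CPM and then at 6546 and 9605 CPM (1.40 ± 0.47, adjusted p = 0.34 by edgeR). The cluster of this class led by Gip, Gcg and Cck held 4.39%, 19.5% and 24.9% of its cells on days 2 to 4 and 38.6% and 34.5% at day 6. These hormones define that cluster, so its size and their level cannot be told apart.

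Targets of the integrated stress response, the ATF4 programme that cells start when translation is held back, were higher at day 6 over all cells. Of 23 tested, 17 lay above and none below all earlier libraries (median log2 change 0.43, and 0.23 against day 4), and Nupr1, Chac1, Trib3 and Slc7a11 passed with 17 libraries. By class, 12 of 23 lay above and none below in Paneth-like sums, where 14% of all genes lay above. Enteroendocrine-like sums had 6 of 20 above and 2 below (14.6% of all genes above). Stem-like and cycling sums had 4 of 19 above and 4 below (14.5% above). ATF4 and CEBP factors bind a composite element, searched here as TGATGNAA on both strands in the 250 bases before each gene's start in RefSeq (GRCm38.p6). It was found in 1134 of 32851 promoters (3.45%). Of the 22 members with a promoter in this set, 8 had it in any of their promoters (36.4%). The first share counts promoters and the second genes, so they are not on 1 scale. The list holds known targets of this programme, so its share is no test. Of the genes that passed, Nupr1, Chac1 and Slc7a11 had a match and Trib3 had none. The 3 promoters printed are those of Nupr1 and Chac1, which passed, and Atf3, which did not, with the match in capitals (TTGCATCA, its reverse complement form); a match describes the letters only.
Nupr1, chr7:126625471-126625720, minus strand: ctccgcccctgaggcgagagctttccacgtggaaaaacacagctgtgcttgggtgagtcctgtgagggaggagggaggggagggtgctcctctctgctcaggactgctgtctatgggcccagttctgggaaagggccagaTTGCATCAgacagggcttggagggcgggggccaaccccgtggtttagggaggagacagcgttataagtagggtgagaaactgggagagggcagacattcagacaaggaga
Chac1, chr2:119350992-119351241, plus strand: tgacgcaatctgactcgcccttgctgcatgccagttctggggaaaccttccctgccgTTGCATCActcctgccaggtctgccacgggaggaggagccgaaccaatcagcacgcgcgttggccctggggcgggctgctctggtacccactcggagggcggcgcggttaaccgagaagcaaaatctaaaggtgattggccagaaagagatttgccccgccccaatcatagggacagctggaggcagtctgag
Atf3, chr1:191183334-191183583, minus strand: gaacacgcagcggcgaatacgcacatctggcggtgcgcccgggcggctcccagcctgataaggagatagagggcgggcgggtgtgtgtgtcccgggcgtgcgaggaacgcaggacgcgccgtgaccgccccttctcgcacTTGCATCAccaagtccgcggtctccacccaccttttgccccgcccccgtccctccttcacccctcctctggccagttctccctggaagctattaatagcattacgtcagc

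Nupr1, a small stress-induced nuclear protein that is counted both here and among the Paneth products, was at 98.8, 209.8 and 639 CPM and then at 1407 and 1307 CPM. It was higher on each later day and rose by 2.51 ± 0.25 (SE) on the log2 scale with edgeR (adjusted p = 0.0014 over 17 libraries, 0.43 with the 5). Paneth-like cells held 93.1% of its UMIs at day 6, and within them Nupr1 rose as well, from 1126, 874 and 1676 CPM to 2840.4 and 3142 CPM (edgeR log2 change 1.28 ± 0.22, adjusted p = 0.0016, and 0.0660 without day 3). Nupr1 is among the top 10 genes of the Paneth-like cluster that made up more of the class at day 6. What this make-up contributed to its rise within the class was not tested. Chac1, which degrades glutathione, was at 7.85, 7.19 and 26.2 CPM and then at 38.3 and 51.0 CPM (edgeR log2 change 1.95 ± 0.22, adjusted p = 0.0022 over 17 libraries). Atf3, a stress and immediate early factor, was at 577, 493 and 726 CPM and then at 979 and 1111 CPM. Its periods did not overlap, and it did not pass with edgeR (adjusted p = 0.45 over 17 libraries). Paneth-like cells held 91.0% of Chac1 and 73.5% of Atf3 UMIs at day 6. Pooled over libraries, their UMIs per 10000 went from 0.513 to 0.791 for Chac1 and from 14.4 to 15.5 for Atf3. Genes of the separate unfolded protein response and ER folding list were near the background, with 11 of 55 above and 4 below and a median of 0.05.

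Immediate early genes respond to many stimuli, tissue dissociation among them. Of this list 10 of 26 tested lay above and none below all earlier libraries (median log2 change 0.29), and edgeR over 17 libraries called none. In enteroendocrine-like sums 13 of 23 lay above and 1 below (median 0.55), where 14.6% of all genes lay above, and Nr4a1 alone passed. Paneth-like sums had 7 of 24 above, and stem-like and cycling sums 4 of 23, with none below in either. The part of dissociation in the stress genes and in Nr4a1 was not tested.

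Glycolysis and cholesterol synthesis genes were on balance lower over all cells, where 12.9% of all genes lay below every earlier library. Of 24 glycolysis genes none lay above and 7 below (median log2 change -0.23, and -0.40 against day 4), and of 23 cholesterol synthesis genes none above and 6 below (-0.24). Of nuclear genes of oxidative phosphorylation 9 of 75 lay below, a share near that of all genes, and none above, with a median of -0.10 that had the other sign in 2 of 15 settings. No member of the 3 lists was among the genes called over 17 libraries by edgeR. Gpi1, the glucose-6-phosphate isomerase, was at 730.2, 508 and 486 CPM and then at 271 and 336 CPM (edgeR log2 change -0.90 ± 0.21, adjusted p = 0.085 over 17 libraries). Enterocyte-like cells held 51.2% of Gpi1 UMIs on days 2 to 4 and 26.9% at day 6. In Paneth-like sums the glycolysis list had 1 of 19 above and 1 below, with a median of 0.0045. In enteroendocrine-like sums it had 2 of 21 above and 7 below (-0.28), and in stem-like and cycling sums 0 of 21 above and 3 below (-0.20). What the make-up of the libraries contributed over all cells was not tested. In Paneth-like sums the oxidative list had 24 of 71 above and 2 below, with a median of 0.28.

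The direction of absorptive genes depended on the days compared. The enterocyte list had a median log2 change of -0.48 against days 2 to 4 and 0.37 against day 4. Fabp1, a fatty acid binding protein, was at 2995, 871 and 299.8 CPM and then at 298 and 198 CPM, so that day 4 was already at the level of day 6 replicate 1. Slc2a5, the fructose transporter, was the 1 member that passed with 17 libraries, at 126, 77.4 and 53.1 CPM and then 39.0 and 37.0 CPM (edgeR log2 change -1.08 ± 0.22, adjusted p = 0.048). Scd1, the stearoyl-CoA desaturase, named after its values were seen, fell from 1059, 643 and 279 CPM to 192 and 153 CPM (-1.74 ± 0.35, edgeR adjusted p = 0.044 over 17 libraries).

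Junction and surface genes were higher in smaller steps. Of 20 claudins and junction genes 8 lay above and none below all earlier libraries (median log2 change 0.15), and in Paneth-like cells Cldn2, a pore-forming claudin, rose from 88.8, 107 and 106 CPM to 257 and 196 CPM (edgeR log2 change 1.15 ± 0.17, adjusted p = 0.00014). Of 19 interferon and antigen presentation genes 8 lay above and 1 below (median 0.16), and Ly6e, an interferon-induced surface protein, rose from 189, 279.6 and 375 CPM to 692 and 552 CPM (1.19 ± 0.22, edgeR adjusted p = 0.031 over 17 libraries). Of 48 lysosome genes 18 lay above and 1 below in all cells (median 0.21).

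**Figure D5:**
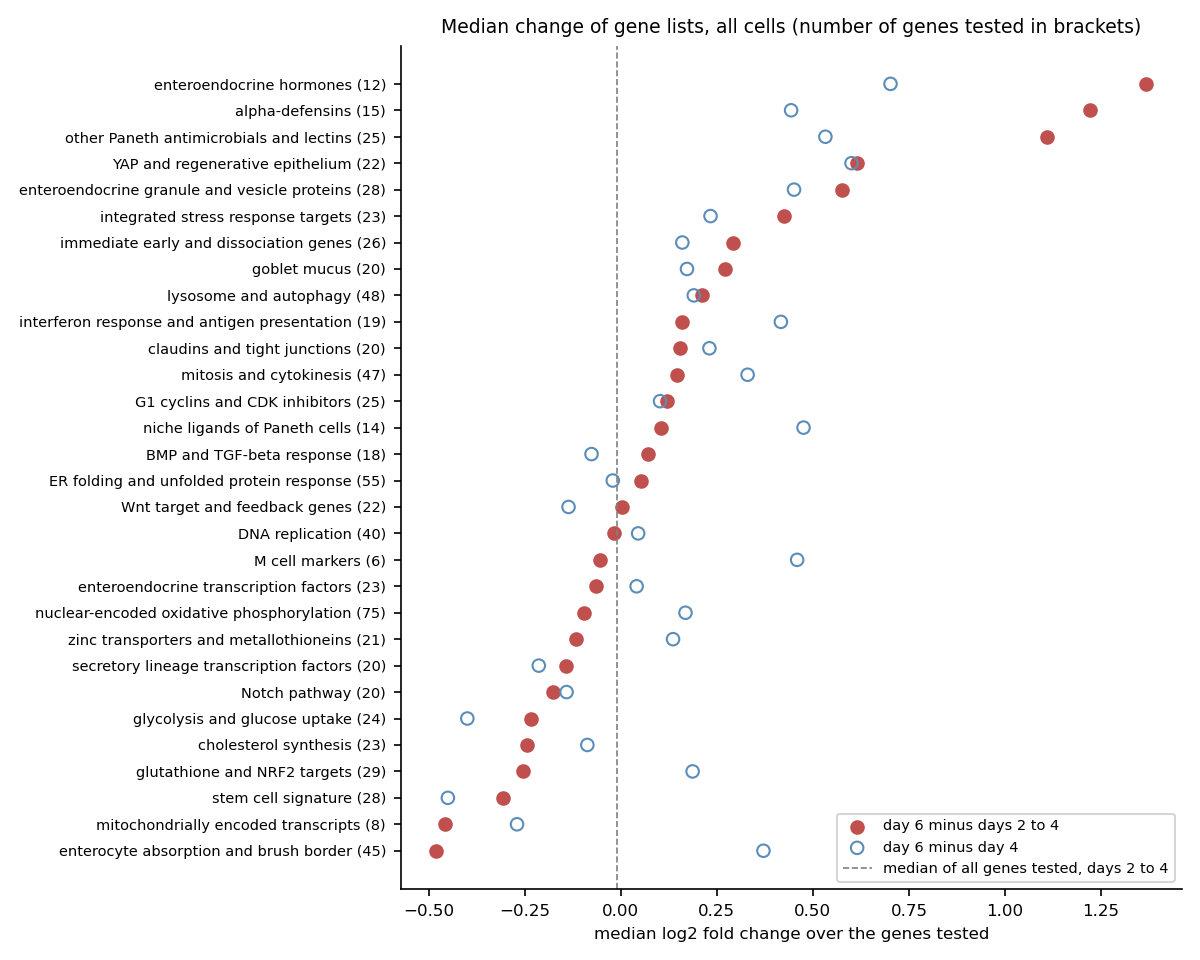
Median log2 change of 30 gene lists in sums over all cells, day 6 against days 2 to 4 (filled) and against day 4 alone (open), with the number of genes tested in brackets; the dashed line is the median of all genes, -0.01. Hormones, alpha-defensins and other Paneth products lead with 1.37, 1.22 and 1.11 and are smaller against day 4, whereas the regenerative list is as high against day 4 (0.60) as against days 2 to 4 (0.62).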

How the data were processed

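Per the labels and the study's methods, the authors made Seq-Well S3 libraries, demultiplexed reads with bcl2fastq, aligned them to mm10 with STAR and collapsed them with the Drop-seq pipeline, for which the sources differ on the version. The deposited files hold raw UMI counts per gene and cell, and the cells used are those kept in the authors' merged table, whose header was matched to the per-library tables. All had at least 500 genes, at most 30000 UMIs and at most 35% mitochondrial UMIs. The authors' housekeeping and doublet filters came before deposit, and no doublet caller was run. The annotation used for counting is not given in the sources used here.

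Counts were summed per library over all cells or over a class. Differences were tested with edgeR 4.0.16 (quasi-likelihood, TMM, filterByExpr, Benjamini-Hochberg, threshold 0.05) in R 4.3.3, with DESeq2 1.42.0 as an alternative, after checks on simulated data. CPM, counts scaled to 1000000 per library, use TMM-scaled library sizes, while shares of UMIs use raw totals. Classes came from Seurat 5.3.0 with sctransform 0.4.2 (3000 variable genes, 9 components, 20 neighbours, Louvain resolution 0.45) over the 5 libraries. A cluster took a class name with at least 2 of its markers among the top 10 genes and at least 3 markers in 5% of cells, and a class was tested with at least 20 cells in each library. Shares were compared by two-sided exact permutation of libraries in Python 3.11.15 with scipy 1.17.1. Intervals cover counting error only.

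Genes were named by rule: of class sums the 8 higher and 8 lower with the smallest p past the threshold and without overlap, and of each list the members past the threshold over all cells and the 4 most abundant others; other genes, and list members called only with 17 libraries or only in a class, were chosen after their values were seen. All groups, 32 gene lists and tests were chosen with earlier results of these data known. Days 2 to 4 are all replicate 2 while day 6 has replicates 1 and 2, so a block on the number leaves day 6 replicate 2 against days 2 to 4. Gene positions are those of GENCODE on GRCm38, the assembly of mm10. Alternatives were other size factors, no filter, DESeq2, leaving out each library, thinning to 1000 UMIs, all barcodes, a linear term for day, another resolution and class calls by marker score. Some list members are counted but not reported here by name.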

Additional observations from a re-analysis of the deposited data

How the results depend on the processing

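Over all cells edgeR called 0 genes in the 5 libraries, also with RLE size factors, after thinning and with all barcodes. The call counts, higher and lower, were 451 and 371 without the filter, 62 and 21 with DESeq2, 184 and 114 with a linear term for day and 107 and 15 with 17 libraries. Leaving out 1 library gave 0 to 54 higher and 0 to 11 lower, the most without day 2 (54 and 9) and day 4 (39 and 11). Chosen after seeing the data, the fit over 17 libraries without a day 6 library gave 15 to 42 higher and 0 to 2 lower. With the replicate block, which could not pair the groups, 0 genes were called, and 297 higher and 142 lower had an unadjusted p under 0.05; it changed no call. Against day 4 the counts were 52 and 6 without the filter and 1 and 0 with DESeq2.

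In Paneth-like cells the calls were 210 higher without the filter, 48 and 16 with DESeq2, and 31 to 209 and 5 to 142 with 1 library left out. In enteroendocrine-like cells they were 263 and 167 without the filter, 28 and 20 with DESeq2, 48 and 31 by marker score, and 0 to 127 and 0 to 78 with 1 library left out. In stem-like and cycling cells they were 5 higher with RLE factors, 193 and 73 without the filter, 9 and 8 with DESeq2, 108 and 32 by marker score, and 0 to 145 and 0 to 21 with 1 library left out. The difference in the share of enteroendocrine-like cells was 7.28 at resolution 0.8, where the cells led by Miat and Nefm had no name. That of stem-like cells went from -12.4 to -3.75 when the cluster led by Clu and Notum was joined to them, a choice made after seeing the data. The median share of UMIs per cell in the stem cell list differed by -0.0797 without thinning, and by -0.1 to -0.1 without either day 6 library.

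Small log2 changes turned sign. For Neurog3 (-0.09) they were 0.0065 with the replicate block and 0.0226 over 17 libraries without day 6 replicate 1. They ran from -0.236 to 0.0531 with 1 library left out, and the linear term gave 0.0023 per day. With 1 library left out Mki67 ran from -0.0152 to 0.411, Slc12a2 from -0.0858 to 0.167, and Lyz1 in Paneth-like cells from -0.0184 to 0.266. Of the other values of single genes 1199 kept direction and call, 241 gained and 43 lost the call; 407 of the list medians stayed within the spread of the libraries and 43 did not. The cause of these moves was not tested. The linear term gives a log2 change per day, so its values, also counted here, are not on the scale of the others. With 3 libraries against 2, and time within the 3, the tests over all cells had little room to pass, and low genes rest on few UMIs.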
